A study of Mus musculus with 4 samples.

Results

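The extracellular matrix is the mesh of secreted proteins and proteoglycans that surrounds cells. Its structural genes were taken by name from a table of read counts in cultured mouse neural progenitor cells, as the protein-coding genes for collagen chains, laminins, glypicans, syndecans, link proteins, emilins, fibulins and fibrillins, together with a list of single genes such as Fn1, Tnc, Ncan and Sparc. The names matched 69 of the 13881 genes in the table. Among them 68 encode matrix or cell-surface proteoglycan proteins, and the remaining match, Col4a3bp, is a collagen only by name, since it encodes a ceramide transfer protein. The cells were dissected from the forebrain of C57bl/6 embryos at embryonic day 14 and grown in proliferation medium, which held B27 at 2% and 20 ng/ml each of EGF and FGF-2. Cells of the shRybp group (2 libraries) had been infected with a lentivirus carrying a short hairpin RNA against Rybp, a partner of Polycomb repressive complex 1, and cells of the control group (2 libraries) are labelled ctrl. Which vector the control cells received is not stated in the sources used here. The labels leave unsaid whether the 2 libraries of a group are from different cultures or animals. The p-values therefore reflect variation among the libraries alone, and that variation may be technical.

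Matrix in the brain differs from that of connective tissue. Fibrous collagens are sparse there, and the space between cells is filled by hyaluronan bound to chondroitin sulfate proteoglycans of the lectican family (neurocan, brevican, versican), which link proteins and tenascins tie into a lattice. Basement membranes of laminin, collagen IV, nidogen and perlecan line the vessels and the brain surface, and neural progenitors make laminins and other matrix proteins of their own. Glypicans and syndecans are cell-surface proteoglycans whose heparan sulfate chains hold growth factors such as FGF-2.

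Total counts were between 14355308 and 17598873 per library. Rybp itself had an FPKM (reads per unit of gene length and of sequencing depth) of 3.01 and 2.66 in shRybp and 4.43 and 3.95 in control, so that 65.8% of its transcript remained (edgeR adjusted p = 0.0017). The progenitor filament gene Nes had 244 and 236 FPKM in shRybp and 149 and 145 FPKM in control, and Fabp7, a fatty acid binding protein gene of radial glia, had 1468 and 1351 FPKM in shRybp and 2210 and 1982 FPKM in control. Of 9 tested progenitor markers 2 rose (Nes and Vim) and 3 fell (Fabp7, Sox2 and Msi1), and the FPKM of all 10 summed to 2442 and 2355 in shRybp and 3046 and 2784 in control. Markers of the cells that usually build fibrous matrix were scarce. Of 12 fibroblast and meningeal markers, Cd248 and Foxc1 could be analysed, with a summed FPKM of 5.11 and 5.69 in shRybp and 3.89 and 3.79 in control, and both rose. Of 9 pericyte and smooth muscle markers 3 could be analysed, with sums of 3.36 and 3.07 in shRybp and 2.18 and 2.22 in control, and Acta2 rose. Of 10 endothelial markers 2 could be analysed, with sums of 0.679 and 0.689 in shRybp and 0.558 and 0.765 in control. Microglial markers summed to 0.967 and 0.632 FPKM in shRybp and 0.173 and 0.952 FPKM in control over 2 of 8 genes. Of 4 tested neuronal markers, 2 fell and 0 rose. The fibroblast, pericyte, endothelial and microglial markers not counted above were not among the 13881 genes.

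A gene was tested if its mean FPKM over the 4 libraries was at least 1, and it is said to have risen or fallen in shRybp if its edgeR quasi-likelihood adjusted p was under 0.05. Of the 69 genes, 51 were tested, 18 rose and 14 fell. These 32 genes are 62.7% of the tested members, where 33% of all 12062 tested genes passed, and tested members had a median of 687.2 counts per library where all tested genes had 584.2. In each direction the share of members was above that of all genes, with 35.3% of members risen, against 16.3% of all genes, and 27.5% fallen, against 16.7%. Changes of at least 1.5-fold were found for 16 members, 31.4% of those tested, where the share over all genes was 7.69%. Changes of at least 2-fold were found for 6 members, 11.8%, against 1.79% of all genes. The median log2 fold change was 0.17 over members and 0.00 over all genes, and the median absolute log2 fold change was 0.42 over members and 0.19 over all genes. The 2 shRybp libraries lay both above or both below the control libraries in FPKM for 41 of 51 members (80.4%), against 67.5% of all tested genes.

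Within each group, replicate 2 tended to be above replicate 1 for these genes. Replicate 2 was the higher library for 42 of 51 members in shRybp and for 38 of 51 in control, and for 32 in both, where close to even shares were seen over all tested genes (50.8% in shRybp and 49.8% in control). The median difference, replicate 2 minus replicate 1 on the log2 scale, was 0.15 in shRybp and 0.12 in control. The part of this offset in the results was not tested, but the number of members that rose was 11 without shRybp replicate 2, with a median of 0.03, and between 15 and 23 without any other library.

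A few glial and neural genes held most of the summed FPKM of the 69 genes. Neurocan, brevican and the secreted glycoprotein hevin (Ncan, Bcan and Sparcl1) together had a summed FPKM of 749 and 795 in shRybp and 1230.4 and 1225.6 in control. They held 52.1% and 51.4% of the summed FPKM of all 69 genes in shRybp and 66.8% and 65.0% in control. The sum over all 69 genes was 1438 and 1548 FPKM in shRybp and 1843 and 1886 FPKM in control, so it was lower in both shRybp libraries. The sum over the other 66 genes was 688 and 753 FPKM in shRybp and 613 and 660 FPKM in control, higher in both shRybp libraries.

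**Figure D1:**
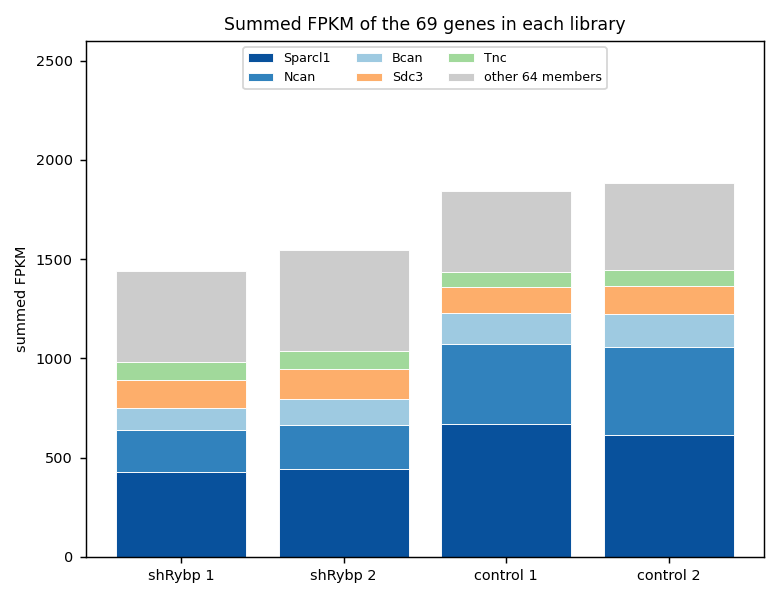
Summed FPKM of the 69 matrix genes in each library (y axis, linear from 0), with the 5 most abundant genes as separate segments and the other 64 together in grey. The shRybp bars reach 1438 and 1548 FPKM and the control bars 1843 and 1886 FPKM, and the segments of Sparcl1, Ncan and Bcan are shorter in shRybp.

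Among the genes of the hyaluronan-bound lattice, the 2 most abundant fell and none of the 4 rose (50% passed, against 33% of all tested genes). Ncan, which encodes the lectican neurocan (ENSMUSG00000002341, mm10 chromosome 8, 70093085 to 70120873, minus strand), had 213 and 219 FPKM in shRybp, against 401 and 442 FPKM in control. The 2 groups lie far apart beside the gap between replicates, and the log2 fold change was -1.0 (SE 0.07, edgeR adjusted p = 1.1e-06). Bcan, which encodes brevican, had 109 and 131 FPKM in shRybp and 158 and 169.5 FPKM in control, a log2 fold change of -0.48 (edgeR adjusted p = 0.00066, SE 0.08). Vcan, which encodes versican, the lectican of early development, did not pass, with 21.7 and 19.9 FPKM in shRybp and 21.6 and 22.5 FPKM in control (log2 fold change -0.12, edgeR adjusted p = 0.17, with a 95% interval of -0.26 to 0.02). The link protein gene Hapln4, which encodes a protein that fastens lecticans to hyaluronan, lies tail to tail with Ncan, 2222 bases away. It had 2.43 and 2.33 FPKM in shRybp and 1.71 and 1.88 FPKM in control and did not pass (log2 fold change 0.37, edgeR adjusted p = 0.073).

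Tenascins are large oligomeric glycoproteins that bind lecticans, and their genes changed in opposite directions. Tnr, which encodes the tenascin of mature neural matrix (ENSMUSG00000015829, mm10 chromosome 1, 159523769 to 159931729, plus strand), had 8.18 and 6.92 FPKM in shRybp, against 13.6 and 16.3 FPKM in control. It fell by 1.02 on the log2 scale (SE 0.09, edgeR adjusted p = 6.4e-06). Tnc, the tenascin gene of progenitors and of injured tissue, had 91.0 and 93.7 FPKM in shRybp and 76.7 and 78.8 FPKM in control, a small rise without overlap (log2 fold change 0.21, edgeR adjusted p = 0.018, SE 0.06). The call for Tnc was lost without control replicate 1, control replicate 2 or shRybp replicate 2 (edgeR adjusted p between 0.051 and 0.095). The ratio of Tnc to Tnr in FPKM was 11.1 and 13.5 in shRybp and 5.64 and 4.83 in control.

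Sparcl1, which encodes hevin, a protein that astrocytes secrete and that promotes synapse formation, was the most abundant of the 69 genes. It had 427 and 445 FPKM in shRybp, against 671 and 614 FPKM in control, a log2 fold change of -0.60 (edgeR adjusted p = 5.8e-05, SE 0.07). Its paralogue Sparc, whose protein binds collagen, had 60.1 and 62.8 FPKM in shRybp and 53.3 and 59.2 FPKM in control and did not pass (log2 fold change 0.09, edgeR adjusted p = 0.30, with a 95% interval of -0.05 to 0.23). Of the thrombospondins, secreted adhesive glycoproteins, Thbs3 had 1.15 and 1.26 FPKM in shRybp and 1.75 and 1.90 FPKM in control and fell by 0.63 (edgeR adjusted p = 0.0084), a call that DESeq2 did not make (adjusted p = 0.059). Thbs1 had 1.09 and 1.39 FPKM in shRybp and 0.66 and 1.03 FPKM in control and did not pass (log2 fold change 0.53, edgeR adjusted p = 0.076). Thbs3 overlaps Mtx1 on the opposite strand over 6.6% of its exon bases, and no strand information is given in the sources used here.

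Many marker genes of glia also fell in shRybp. All 8 tested astrocyte markers fell, with a summed FPKM over 9 markers of 239.8 and 259.8 in shRybp and 603.4 and 615.6 in control. Of 6 oligodendrocyte precursor markers 3 fell (Gpr17, Pdgfra and Sox10) and 0 rose, with sums of 718.9 and 772.5 FPKM in shRybp and 796.9 and 810.7 FPKM in control. Olig1 (mean FPKM 446 in shRybp and 462 in control), Olig2 (277 and 290) and Cspg4 (11.5 and 13.1) did not pass. Olig1 and Olig2 made up most of these sums. In bulk samples, fewer cells of a type and less RNA per cell cannot be told apart, and the part of these cells in the falls of Ncan, Bcan, Tnr and Sparcl1 was not tested.

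**Figure D2:**
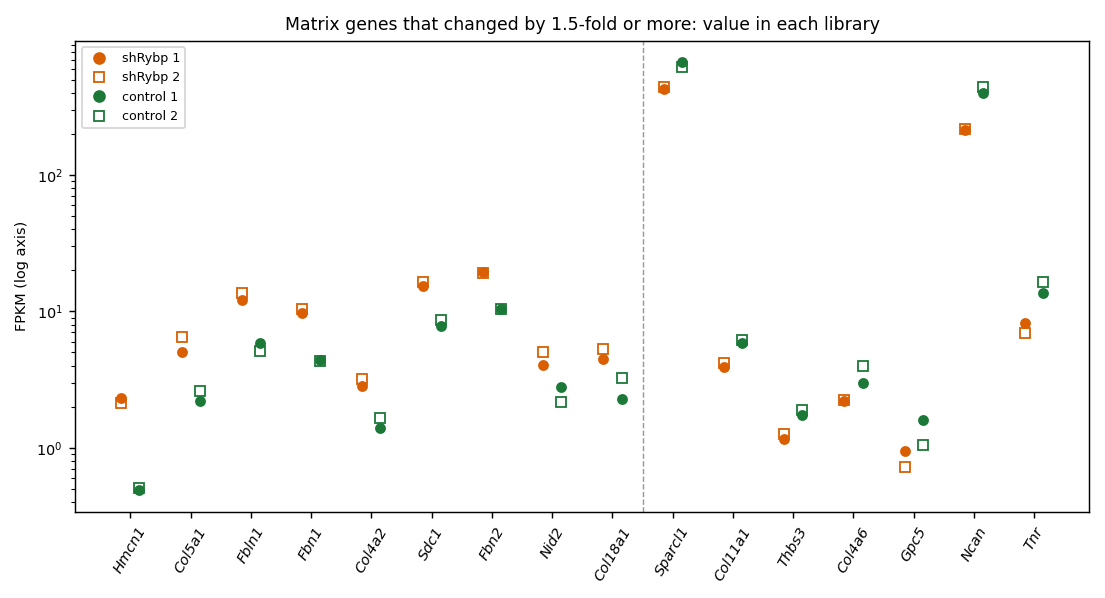
FPKM (log axis) of the 16 matrix genes that passed the test with a change of 1.5-fold or more, with shRybp libraries in orange left of control libraries in green; filled circles are replicate 1 and open squares replicate 2, and the dashed line parts the 9 genes that rose from the 7 that fell. Groups do not overlap for any of these genes, which were picked by the test, nor for 67.5% of all tested genes. Sparcl1 and Ncan stand far above the others in level.

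Genes of microfibrils, the fibrillin scaffolds on which elastic fibres form and which store latent TGF-beta, rose in part. In this group of 6 tested genes 3 rose and 0 fell, a share of 50%, where 33% of all tested genes passed. Fbn1, which encodes fibrillin-1 (ENSMUSG00000027204, mm10 chromosome 2, 125300594 to 125507993, minus strand), had 9.76 and 10.4 FPKM in shRybp and 4.36 and 4.36 FPKM in control. Replicates nearly coincided, and the log2 fold change was 1.17 (SE 0.07, edgeR adjusted p = 2.5e-07). A predicted protein-coding gene on the opposite strand, Gm9913, overlaps 20.1% of the exon bases of Fbn1. Fbn2, which encodes fibrillin-2, the form typical of embryonic tissue, had 19.4 and 19.2 FPKM in shRybp and 10.4 and 10.4 FPKM in control (log2 fold change 0.85, edgeR adjusted p = 7.6e-07, SE 0.06). Fbln1, whose protein fibulin-1 binds fibronectin, laminin and lecticans, had 12.1 and 13.5 FPKM in shRybp and 5.91 and 5.15 FPKM in control (log2 fold change 1.18, edgeR adjusted p = 3.3e-06, SE 0.10). The other fibulins did not pass. Fbln2, the most abundant of the group, had 34.6 and 42.5 FPKM in shRybp and 33 and 33.9 FPKM in control (log2 fold change 0.17, edgeR adjusted p = 0.13), and Fbln7 had a log2 fold change of -0.12 (edgeR adjusted p = 0.66). Emilin1, which encodes an elastic fibre glycoprotein, had 1.46 and 1.64 FPKM in shRybp and 0.93 and 1.34 FPKM in control (log2 fold change 0.42, edgeR adjusted p = 0.11), and Emilin2 was too low to test.

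Hmcn1, the gene for hemicentin-1, had the largest change among the 51 tested members. Hemicentins are very long secreted proteins of the immunoglobulin superfamily, known in Caenorhabditis elegans for holding tissues together at basement membranes. Hmcn1 (ENSMUSG00000066842, mm10 chromosome 1, 150562524 to 150993435, minus strand) had 2.32 and 2.14 FPKM in shRybp, against 0.49 and 0.51 FPKM in control, from 707 and 744 counts in shRybp and 182 and 172 counts in control. It was 4.36-fold higher in shRybp, which is 2.13 on the log2 scale (edgeR adjusted p = 2.5e-08, SE 0.10). Both shRybp libraries exceed both control libraries. Hmcn1 met the filter of 1 FPKM only through the shRybp libraries, the group where it is high. Without that filter its log2 fold change was 2.13 as well. That value rests on the same counts of Hmcn1, so it cannot test the part of the filter. Fn1, which encodes fibronectin, had 5.79 and 7.06 FPKM in shRybp and 4.88 and 6.28 FPKM in control, with overlapping groups, and did not pass (log2 fold change 0.17, edgeR adjusted p = 0.27, with a 95% interval of -0.07 to 0.42).

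Collagen chains were divided by family. Among 25 chains with counts, 13 were tested, of which 5 rose and 4 fell. That is a share of 69.2%, where 33% of all tested genes passed. The other 12 were too low to test, and the highest mean FPKM of any untested member was 0.898. Fibrillar collagen V, a minor fibril component that sets fibril diameter, rose in part. Col5a1 (ENSMUSG00000026837, mm10 chromosome 2, 27886425 to 28039514, plus strand) had 5.01 and 6.52 FPKM in shRybp and 2.20 and 2.60 FPKM in control, a log2 fold change of 1.23 (edgeR adjusted p = 1.5e-05, SE 0.12). Col5a2, its partner chain, had 11.3 and 12.3 FPKM in shRybp and 9.19 and 9.75 FPKM in control (log2 fold change 0.28, edgeR adjusted p = 0.0079, SE 0.07), and lost the call without shRybp replicate 2 (edgeR adjusted p = 0.091). The third chain gene, Col5a3, did not pass, with 4.22 and 4.96 FPKM in shRybp and 3.38 and 4.15 FPKM in control (log2 fold change 0.26, edgeR adjusted p = 0.096). Col11a1, whose chain belongs to the closely related collagen XI, went the other way. It had 3.92 and 4.17 FPKM in shRybp and 5.83 and 6.13 FPKM in control (log2 fold change -0.60, edgeR adjusted p = 8.7e-05, SE 0.08).

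Collagen IV forms the network of basement membranes, and its chain genes lie in head-to-head pairs in which each pair is transcribed outward from a common region. The pair on chromosome 8 changed unequally. Col4a2 (ENSMUSG00000031503, mm10 chromosome 8, 11312805 to 11449287, plus strand) had 2.85 and 3.20 FPKM in shRybp, against 1.41 and 1.67 FPKM in control, a log2 fold change of 0.95 (edgeR adjusted p = 0.00012, SE 0.12). Col4a1 (ENSMUSG00000031502, mm10 chromosome 8, 11198423 to 11312826, minus strand) had 6.04 and 7.36 FPKM in shRybp and 6.12 and 6.76 FPKM in control, with overlapping groups (log2 fold change 0.02, edgeR adjusted p = 0.88, with a 95% interval of -0.19 to 0.24). The 95% interval of Col4a2, 0.68 to 1.22, did not reach that of Col4a1. The ratio of Col4a2 to Col4a1 in FPKM was 0.472 and 0.435 in shRybp and 0.230 and 0.246 in control. With 2 libraries against 2, an exact two-sided permutation test of such a ratio cannot give a p below 0.333, so the ratios here and above stand as values.

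The pair on chromosome X fell together. Col4a5 (ENSMUSG00000031274, mm10 chromosome X, 141475385 to 141689234, plus strand) had 9.93 and 10.6 FPKM in shRybp and 13.8 and 16.0 FPKM in control (log2 fold change -0.57, edgeR adjusted p = 0.00019, SE 0.08). Col4a6 (ENSMUSG00000031273, mm10 chromosome X, 141165403 to 141474076, minus strand) had 2.22 and 2.24 FPKM in shRybp and 2.98 and 3.99 FPKM in control (log2 fold change -0.68, edgeR adjusted p = 0.0013, SE 0.12). The ratio of Col4a5 to Col4a6 was 4.48 and 4.74 in shRybp and 4.61 and 4.0 in control, with overlapping groups.

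The promoter windows of both pairs are shown because the starts of the unequal pair nearly coincide while those of the pair that fell together do not. They run from 250 bases before to 50 bases after the annotated start and come from RefSeq on GRCm38.p6, the assembly also called mm10. The starts of Col4a1 and Col4a2 are 21 bases apart, their windows overlap by 78 bases, and the first exons overlap by 22 bases, whereas the starts of Col4a5 and Col4a6 are 1343 bases apart. Capitals mark the GC box (GGGCGG, or CCGCCC on the other strand) and the CCAAT box (CCAAT, or ATTGG on the other strand), which do not overlap each other here.
Col4a1, chr8:11312777-11313076, minus strand: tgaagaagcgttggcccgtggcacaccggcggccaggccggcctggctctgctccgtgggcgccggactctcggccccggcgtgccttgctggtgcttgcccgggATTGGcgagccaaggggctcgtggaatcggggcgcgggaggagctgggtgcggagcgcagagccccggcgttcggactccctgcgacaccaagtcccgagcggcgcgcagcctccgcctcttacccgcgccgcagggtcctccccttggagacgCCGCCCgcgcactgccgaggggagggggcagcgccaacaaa
Col4a2, chr8:11312555-11312854, plus strand: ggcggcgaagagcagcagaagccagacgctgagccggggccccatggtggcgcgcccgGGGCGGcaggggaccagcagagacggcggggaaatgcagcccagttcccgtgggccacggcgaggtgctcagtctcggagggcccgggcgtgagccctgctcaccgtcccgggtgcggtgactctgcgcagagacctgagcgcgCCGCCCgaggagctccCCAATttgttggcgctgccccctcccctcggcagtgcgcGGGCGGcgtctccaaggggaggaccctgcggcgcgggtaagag
Col4a6, chrX:141474027-141474326, minus strand: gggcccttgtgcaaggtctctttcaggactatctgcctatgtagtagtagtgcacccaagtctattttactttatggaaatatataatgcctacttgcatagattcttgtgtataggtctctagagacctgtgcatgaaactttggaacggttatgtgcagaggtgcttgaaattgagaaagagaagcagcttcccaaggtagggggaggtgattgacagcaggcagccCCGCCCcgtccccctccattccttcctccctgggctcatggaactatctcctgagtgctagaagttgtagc
Col4a5, chrX:141475169-141475468, plus strand: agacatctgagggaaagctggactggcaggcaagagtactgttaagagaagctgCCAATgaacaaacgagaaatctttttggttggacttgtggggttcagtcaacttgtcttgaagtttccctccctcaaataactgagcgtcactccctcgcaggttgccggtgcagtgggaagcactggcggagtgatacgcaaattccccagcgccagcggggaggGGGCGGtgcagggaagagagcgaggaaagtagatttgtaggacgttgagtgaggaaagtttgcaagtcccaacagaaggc
The chromosome 8 windows had 74.0% (Col4a1) and 73.7% (Col4a2) G or C and 37 and 33 CpG dinucleotides. The chromosome X windows had 48.3% (Col4a6) and 52.7% (Col4a5) G or C and 3 and 11 CpG dinucleotides. GC boxes were found once in Col4a1, 3 times in Col4a2 and once in each of Col4a6 and Col4a5, and a CCAAT box stood in each window other than that of Col4a6. The Col4a1 GC box and the last Col4a2 GC box are the same bases, read from opposite strands where these windows overlap. Over all 32851 RefSeq promoter windows of this length, 35.7% hold a GC box and 37.4% a CCAAT box on either strand. Windows were found for 49 of the 69 genes, 56 windows in all, of which 73.2% hold a GC box and 37.5% a CCAAT box. The RefSeq windows come from 27025 genes and were not limited to the 13881 genes counted here. Shares over windows of the counted genes alone were not computed, so the member shares are not shown to be particular to matrix genes. The median number of CpG dinucleotides was 16.0 in windows of members that rose (10 genes), 9.0 in those of members that fell (11 genes), 20.0 in those of members that did not pass (14 genes), 16.0 over all member windows and 7.0 over all windows. The TGGGAA core bound by the Notch partner RBPJ was looked for on either strand. It was found in 6 of 13 windows of members that rose (46.2%) and 6 of 11 of those that fell (54.5%). It was in 3 of 15 windows of members that did not pass (20.0%) and 6 of 17 of untested members (35.3%). The share was 37.5% over all member windows and 25.6% over all windows. The sets hold few windows, and differences between them were not tested. A match describes the letters of a window and not a bound site.

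**Figure D3:**
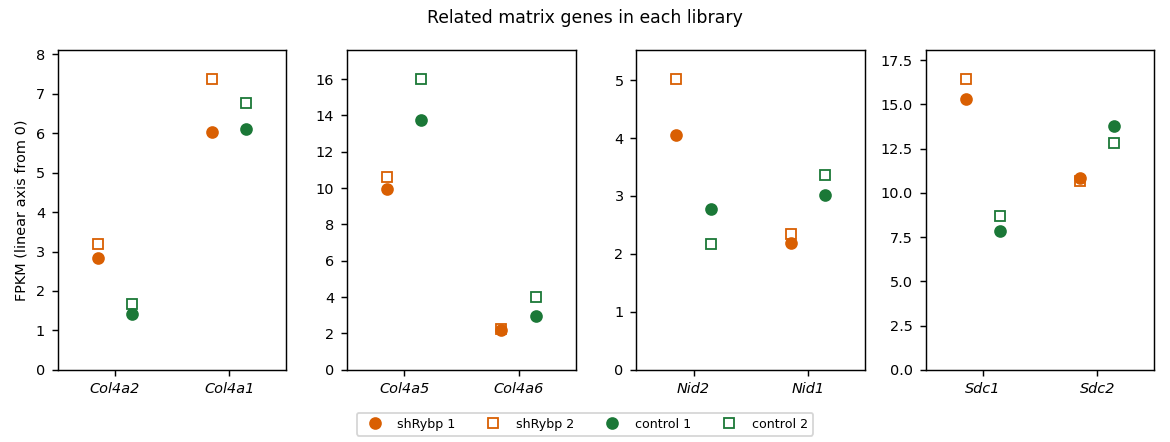
FPKM (y axes, linear from 0) of 4 pairs of related matrix genes in each library, with shRybp in orange left of control in green for each gene. Col4a2 is higher in both shRybp libraries while Col4a1 overlaps, Col4a5 and Col4a6 are both lower, and Nid2 and Nid1, as well as Sdc1 and Sdc2, move in opposite directions.

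Outside collagens IV, V and XI, 2 chain genes rose and 1 fell. Col18a1, whose basement membrane collagen is the source of the fragment endostatin, had 4.5 and 5.31 FPKM in shRybp and 2.26 and 3.22 FPKM in control (log2 fold change 0.81, edgeR adjusted p = 0.00065, SE 0.14). Col16a1, a fibril-associated collagen gene, had 8.03 and 9.43 FPKM in shRybp and 6.84 and 8.36 FPKM in control and did not pass (log2 fold change 0.17, edgeR adjusted p = 0.24), nor did Col12a1 (log2 fold change 0.26, edgeR adjusted p = 0.11). Col9a3 rose (log2 fold change 0.42, edgeR adjusted p = 0.0069; adjusted p = 0.11 without shRybp replicate 2), with 7.0 and 8.23 FPKM in shRybp and 5.31 and 5.85 FPKM in control. The other chains of collagen IX were far lower, Col9a1 at 0.25 and 0.34 FPKM in shRybp and 0.50 and 0.42 FPKM in control, and Col9a2 at 0.11 and 0.39 FPKM in shRybp and 0.71 and 0.63 FPKM in control. Col6a1 fell (log2 fold change -0.53, edgeR adjusted p = 0.041), but its groups overlapped, with 2.95 and 3.59 FPKM in shRybp and 3.55 and 5.72 FPKM in control. Without control replicate 2 its log2 fold change was -0.16 (edgeR adjusted p = 0.43), without shRybp replicate 1 the adjusted p was 0.14, and the call was lost in DESeq2 (adjusted p = 0.056), in both limma fits (adjusted p = 0.17) and with library totals in place of TMM (edgeR adjusted p = 0.065) too. The other collagen VI chains of the table, Col6a2 and Col6a3, were below 0.6 FPKM in every library.

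Without the filter on low values 5 of the 18 untested members passed the edgeR test, all from few counts. In that fit 2128 of all 13881 genes rose and 2227 fell. Col25a1, a transmembrane collagen gene of neurons, had 18 and 18 counts in shRybp and 5 and 4 counts in control (edgeR adjusted p = 0.0038), and Col28a1 had 42 and 57 counts in shRybp and 38 and 17 counts in control (edgeR adjusted p = 0.031). Lower in shRybp were Col6a3, with 5 and 8 counts against 18 and 27 in control (edgeR adjusted p = 0.0096), Col9a2, with 5 and 20 counts against 39 and 31 in control (edgeR adjusted p = 0.017), and Thbs4, with 7 and 13 counts against 19 and 30 in control (edgeR adjusted p = 0.039).

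Laminins are cross-shaped trimers of an alpha, a beta and a gamma chain. Of 5 tested chain genes 3 rose and 0 fell, so 60% passed, against 33% of all tested genes. Lamc1, which encodes the gamma chain of most laminins (ENSMUSG00000026478, mm10 chromosome 1, 153218922 to 153332786, minus strand), had 31.2 and 33.5 FPKM in shRybp and 22.1 and 21.8 FPKM in control (log2 fold change 0.52, edgeR adjusted p = 5e-05, SE 0.06). Lama5 had 8.88 and 12 FPKM in shRybp and 6.48 and 8.46 FPKM in control (log2 fold change 0.45, edgeR adjusted p = 0.018, SE 0.13). The groups of Lama5 came close to each other, and the call was lost without shRybp replicate 2 (edgeR adjusted p = 0.19), without control replicate 1 (edgeR adjusted p = 0.051) and in DESeq2 (adjusted p = 0.26) and both limma fits (adjusted p = 0.088). Lama4, an alpha chain gene of vessel walls, had 2.45 and 2.38 FPKM in shRybp and 1.84 and 2.01 FPKM in control (log2 fold change 0.29, edgeR adjusted p = 0.023), and lost the call without control replicate 1, shRybp replicate 1 or shRybp replicate 2 (edgeR adjusted p between 0.069 and 0.15), and in DESeq2 (adjusted p = 0.14) and both limma fits (adjusted p = 0.10). The number of laminin genes that rose was therefore 1 in DESeq2, in both limma fits, and without control replicate 1 or shRybp replicate 2. The beta chain genes did not pass, Lamb2 at 11.2 and 13.1 FPKM in shRybp and 10.8 and 11.1 FPKM in control (edgeR adjusted p = 0.30) and Lamb1 at 2.75 and 3.32 FPKM in shRybp and 3.55 and 3.56 FPKM in control (edgeR adjusted p = 0.061). Lama1 and Lama2 were too low to test.

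Nidogens link the laminin and collagen IV networks, and their genes moved in opposite directions. Nid2 (ENSMUSG00000021806, mm10 chromosome 14, 19751265 to 19811787, plus strand) had 4.04 and 5.01 FPKM in shRybp and 2.77 and 2.17 FPKM in control (log2 fold change 0.84, edgeR adjusted p = 0.00061, SE 0.14). Nid1 (ENSMUSG00000005397, mm10 chromosome 13, 13437551 to 13512269, plus strand) had 2.19 and 2.34 FPKM in shRybp and 3.01 and 3.36 FPKM in control (log2 fold change -0.52, edgeR adjusted p = 0.0021, SE 0.10). The ratio of Nid2 to Nid1 was 1.84 and 2.14 in shRybp and 0.920 and 0.646 in control, so Nid2 was the higher of the pair in both shRybp libraries and the lower in both control libraries. Nid2 shares 8.4% of its exon bases with Rtraf on the opposite strand, which did not pass (log2 fold change 0.01, edgeR adjusted p = 0.91). Hspg2, which encodes the basement membrane proteoglycan perlecan, had 3.29 and 3.91 FPKM in shRybp and 2.44 and 2.81 FPKM in control (log2 fold change 0.42, edgeR adjusted p = 0.0071; adjusted p = 0.058 without shRybp replicate 2, and 0.050 and 0.051 in the limma fits, where the call was lost). Agrn, which encodes agrin, the organizer of the nerve-muscle synapse, was the most abundant of this group and did not pass, with 41.2 and 50.3 FPKM in shRybp and 40.7 and 47.1 FPKM in control (log2 fold change 0.03, edgeR adjusted p = 0.86, with a 95% interval of -0.17 to 0.22).

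Cell-surface heparan sulfate proteoglycan genes differed in direction among paralogues. Sdc1, the syndecan gene best known from epithelia (ENSMUSG00000020592, mm10 chromosome 12, 8771323 to 8793715, plus strand), had 15.3 and 16.4 FPKM in shRybp, against 7.86 and 8.70 FPKM in control (log2 fold change 0.90, edgeR adjusted p = 1.2e-05, SE 0.09). Sdc4, a syndecan gene of focal adhesions, had 13.8 and 16.3 FPKM in shRybp and 19.6 and 19.7 FPKM in control (log2 fold change -0.41, edgeR adjusted p = 0.0048, SE 0.09). Sdc2 had 10.9 and 10.7 FPKM in shRybp and 13.8 and 12.8 FPKM in control (log2 fold change -0.34, edgeR adjusted p = 0.0086, SE 0.09; adjusted p = 0.053 without control replicate 1). Control libraries held the least of Sdc1 among these 3 genes, and in both shRybp libraries Sdc1 was above Sdc2. Sdc3, the main syndecan gene of the nervous system, was the most abundant syndecan gene and did not pass, with 139 and 150.4 FPKM in shRybp and 128 and 139.7 FPKM in control (log2 fold change 0.08, edgeR adjusted p = 0.41).

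Glypicans, which are tied to the membrane by a lipid anchor, were led by Gpc1. It had 33.2 and 37.2 FPKM in shRybp and 24.8 and 25.7 FPKM in control (log2 fold change 0.44, edgeR adjusted p = 0.00037, SE 0.07). Ankmy1 on the opposite strand, which was not among the 13881 genes, overlaps 18.9% of the exon bases of Gpc1. Gpc5 met the filter of 1 FPKM only through the control libraries, the group where it is high. It had 0.95 and 0.72 FPKM in shRybp and 1.59 and 1.05 FPKM in control. It fell (log2 fold change -0.71, edgeR adjusted p = 0.036, SE 0.24), from 61 and 53 counts in shRybp and 125 and 75 counts in control. This call was lost without control replicate 1 (log2 fold change -0.37, edgeR adjusted p = 0.33), without shRybp replicate 2 (edgeR adjusted p = 0.19) and in DESeq2 (adjusted p = 0.12) and both limma fits (adjusted p of 0.12 and 0.13). Its neighbour Gpc6, 400135 bases away on the same strand, did not pass (log2 fold change -0.24, edgeR adjusted p = 0.086). Gpc4 (log2 fold change -0.06) and Gpc2 (-0.39) did not pass either, and 55.6% of the exon bases of Gpc2 are shared with the gene model Gm43720 on the same strand, so the count of Gpc2 is uncertain. Gpc3 was too low to test.

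Of the lysyl oxidases, which cross-link collagen and elastin, Loxl3 was tested. It had 2.22 and 2.92 FPKM in shRybp and 1.77 and 1.70 FPKM in control and rose (log2 fold change 0.53, edgeR adjusted p = 0.020, SE 0.16), and lost the call without shRybp replicate 2 (edgeR adjusted p = 0.26) and in DESeq2 (adjusted p = 0.085) and both limma fits (adjusted p of 0.052 and 0.053). It shares 11.6% of its exon bases with Htra2 on the opposite strand, which rose as well (log2 fold change 0.41, edgeR adjusted p = 0.0042). Loxl2 was too low to test, and Lox, Loxl1 and Thbs2 were sought by name but were not among the 13881 genes. Col4a3bp, the ceramide transfer gene matched by name, fell by 0.28 (edgeR adjusted p = 0.023), and lost the call without either control library (edgeR adjusted p of 0.056 without replicate 1 and 0.060 without replicate 2) or shRybp replicate 2 (adjusted p = 0.13), and in DESeq2 (adjusted p = 0.080) and both limma fits (adjusted p = 0.088). Without it, 18 of 50 tested members rose and 13 fell.

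**Figure D4:**
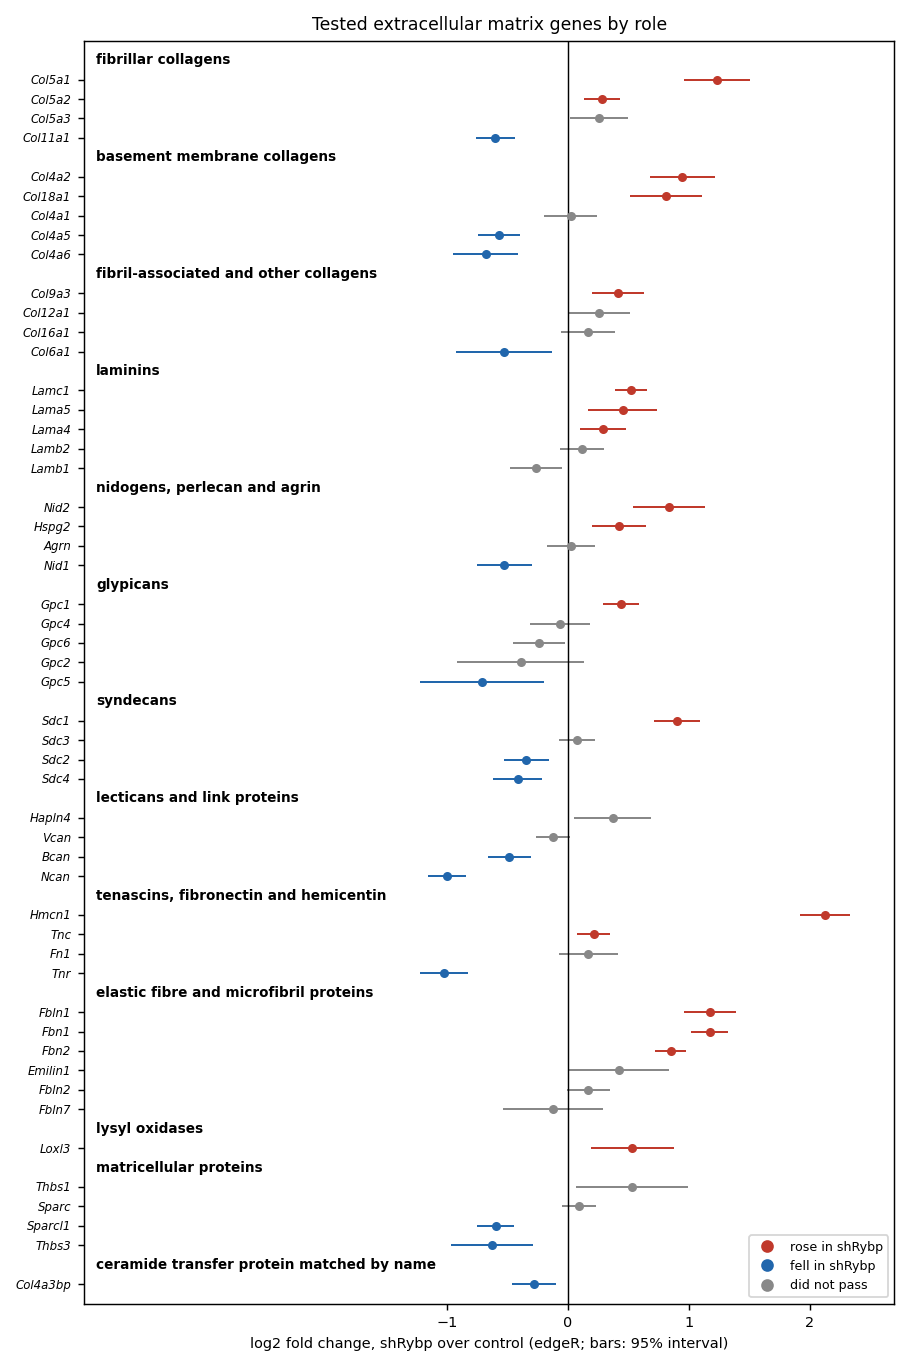
Log2 fold change, shRybp over control, of the 51 tested members (points) with 95% intervals (bars) from edgeR, grouped by role; red marks genes that rose, blue genes that fell and grey genes that did not pass. Hmcn1 is farthest to the right at 2.13 and Tnr farthest to the left at -1.02, and most groups hold members on both sides of 0.

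Genes that modify or bind the matrix were counted in 7 lists. Of 20 tested genes for the folding, hydroxylation and trimming of collagen, 9 rose and 1 fell (50% passed, against 33% of all genes). Serpinh1, which encodes the collagen chaperone HSP47, had a log2 fold change of 0.53 at 112 ± 7.47 FPKM in shRybp and 75.7 ± 4.19 FPKM in control (SD, n = 2 each; edgeR adjusted p = 7.9e-05). The procollagen protease gene Adamts14 (1.02), the procollagen C-proteinase enhancer gene Pcolce (0.81) and the prolyl 3-hydroxylase gene P3h1 (0.54) showed the largest rises, and the member that fell was P4ha1 (-0.61), a prolyl 4-hydroxylase subunit gene. Pcolce met the filter of 1 FPKM only through shRybp, the group where it is high. Heparan sulfate genes passed at 33.3% of 18 tested, close to the share of all genes, with 5 that rose and 1 that fell. The largest of these rises were in the sulfotransferase genes Hs6st2 (0.59) and Hs2st1 (0.25) and in Sulf2 (0.48), which encodes an enzyme that removes sulfates from the chains, and Fam20b (-0.28) fell. Of 12 chondroitin sulfate genes 3 rose, namely Ust (0.64), Chpf2 (0.49) and Chst7 (0.31), and 2 fell, Chpf (-0.44) and Chsy1 (-0.21), a share of 41.7%.

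Of 7 hyaluronan genes 3 rose, the receptor gene Hmmr (0.42), Cemip2 (0.37) and Cd44 (0.32), and the hyaluronan synthase gene Has2 fell (log2 fold change -1.12, edgeR adjusted p = 0.0012, SE 0.20), a share of 57.1% where 33% of all genes passed. Of 16 matrix receptor genes 4 rose and 4 fell, a share of 50%, with the integrin subunit genes Itga4 (2.15), Itga8 (1.01) and Itga5 (0.74) showing the largest rises and Itgb8 (-1.30), Ptprz1 (-0.51) and Itga7 (-0.43) the largest falls. Among 23 other matrix genes 10 rose and 6 fell, a share of 69.6%. Their largest rises were in Spp1 (2.14), Ltbp1 (1.14), whose protein ties latent TGF-beta to fibrillin, and Olfml2b (1.07), and their largest falls in Smoc1 (-0.83), Reln (-0.82) and Vit (-0.77). Of 12 genes of the TGF-beta axis 2 rose, Tgfbr2 (0.95), a receptor gene, and Ski (0.24), and Skil (-0.74) fell, a share of 25%, below that of all genes. Has2 met the filter of 1 FPKM only through control, the group where it is high. Tgfbr2, and Frem1 among the other matrix genes that rose, met it only through shRybp, where they are high.

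**Figure D5:**
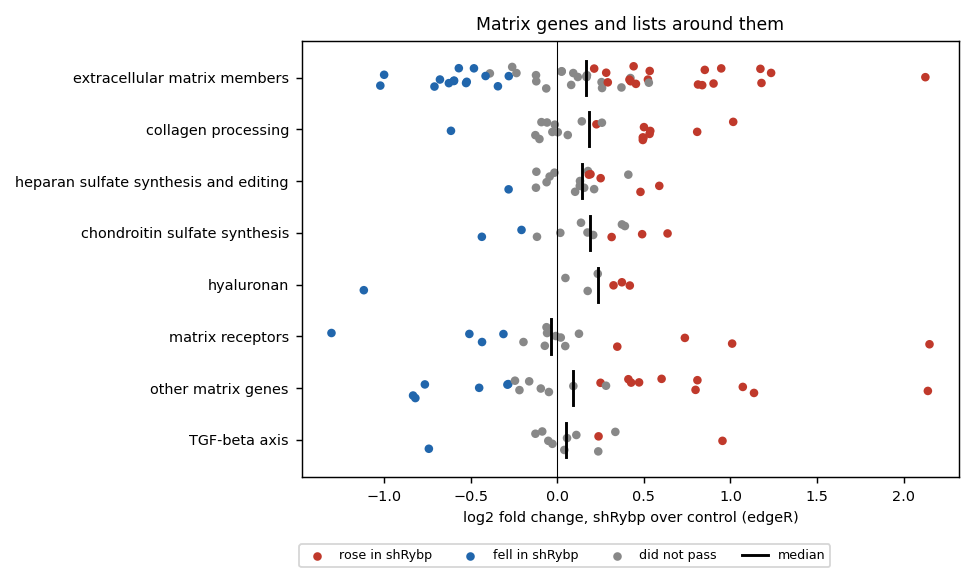
Log2 fold change, shRybp over control (edgeR, x axis), of the 51 tested matrix members (top row) and of the tested genes in 7 lists of matrix processing, receptor and signalling genes; each point is a gene, red if it rose, blue if it fell and grey if it did not pass, and black lines are medians. Medians lie between -0.03 for matrix receptors and 0.23 for hyaluronan genes, with genes on both sides of 0 in every row.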

How the data were processed

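RNA of 4 libraries was analysed from a table in which the authors deposited raw read counts per gene beside FPKM values, per the file headers. The ratio of deposited FPKM to count differed between libraries by 1 factor that was the same for every gene (largest relative deviation 3.6e-08). Per the submitters' processing notes the genome was mm10; for the aligner and the counter, nothing is stated in the sources used here. No gene in the table has fewer than 40 counts in total. Chromosomes, strands and overlaps came from GENCODE M21.

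After genes averaging below 1 FPKM over the libraries were dropped, counts of the 12062 that remained were fitted with edgeR 4.0.16 (R 4.3.3; TMM, quasi-likelihood, two-sided, Benjamini-Hochberg over all genes tested). Standard errors were taken as the log2 fold change without its sign, over the square root of the F statistic. DESeq2 1.42.0 (Wald test) and limma 3.58.1 on log2(FPKM + 1) and log2(FPKM + 0.1) were alternatives. Per-library values were given for members past the test with at least 1.5-fold change, the most abundant member of each role and their paralogues, and for others where a sentence turns on them. From each list at most 3 genes per direction were named, by size of change, with Serpinh1 added after its values were seen. Members and lists were chosen with earlier results of these data known.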

Additional observations from a re-analysis of the deposited data

How the results depend on the processing

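Over 13 alternatives, 20 of the 32 members called kept the call in every alternative that tested them, 12 lost it in at least 1, and none changed direction while called. Of the members not called, 11 passed in at least 1 alternative. Requiring a mean FPKM of at least 5 left 28 members, of which 10 rose and 8 fell. Over all genes that met this stricter filter, 1448 rose and 1551 fell. The number of members that rose was between 11 and 23, and the number that fell between 12 and 14, when 1 library was left out. Leaving out 1 library gave a members' median log2 fold change between 0.026 and 0.231, and over all genes between 1296 and 1640 that rose and between 1481 and 1760 that fell. In such fits the lone library of a group is assumed to vary like the other group. DESeq2 called 15 members higher and 10 lower, and limma 14 and 11. Over all tested genes DESeq2 called 1371 higher and 1447 lower, and limma on log2(FPKM + 1) 1982 and 1442. With library totals in place of TMM 2361 genes rose and 1718 fell, and 18 and 13 members. With the replicate number as a block 25 members rose and 17 fell, and over all 12062 tested genes 2676 rose and 2652 fell. The replicate differences of the groups had a correlation of 0.43 over the members and 0.10 over all tested genes. The labels do not say that the numbers mark shared cultures. The small counts per role or list shifted by over 1.5 times in some settings, and their causes were not tested. Members under about 1 FPKM, such as Gpc5 and the untested collagen chains, are limited by depth, with as few as 4 counts in a library.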
